A study of Mus musculus with 3 samples.

Results

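The let-7 and miR-98 family was examined in the miRNAs of extracellular vesicles (EVs) from mouse testis at postnatal day (PND) 7, with both arms of every hairpin followed. Members were the entries of the deposited catalogues named let-7a to let-7k or miR-98 with a 5p or 3p arm in the name, of the type mature or hairpin. This rule gave 38 entries of 1347 mature and hairpin entries, or 21 identifiers of 805. Counts were found for 31 of the 38 entries in replicate 1, for 33 in replicate 2 and for 34 in replicate 3. Of the 38 entries, 9 were mature 5p, 8 mature 3p, 9 hairpin 5p and 12 hairpin 3p.

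Small RNA was sequenced in 3 libraries, each made from EVs pooled from 10 C57/BL6 male mice at PND 7. EVs came from the fluid left after the decapsulated testes were digested and the cells removed, and they were treated with proteinase K, PMSF and RNase A before RNA extraction. All libraries were of the same condition, with no comparison group, and their titles carry the word treated, whereas their source field names EVs isolated from the testis. The study's statistics paragraph speaks of another number of sets for small RNA sequencing, and the source field and the 3 deposited libraries were followed here. The mature entries held 870967, 1005836 and 966468 counts in replicates 1, 2 and 3, and the hairpin entries held 493345, 612122 and 577529. Levels are given below as CPM, where each count is divided by the mature total of its library and multiplied by 1000000, or by the hairpin total for the hairpin type, which the sources used here do not define. Each library counted as a sample because the titles name the libraries as biological replicates. They differed by far more than counting error, with chi-square values per degree of freedom between 96.6 and 187 for the 3 pairs over 272 miRNAs. Such values cannot by themselves show that the pools are independent. Fewer EVs and less RNA per EV cannot be told apart in these pools, and the catalogues hold small RNAs only, so the labelled tissue was not checked against marker mRNAs.

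A miRNA hairpin is cut by Drosha and then Dicer into a short duplex, and usually a single strand is loaded into an Argonaute protein while the other is degraded. The 5p strand comes from the 5′ side of the hairpin and the 3p strand from the 3′ side. In let-7 hairpins the 5p strand is the usual guide, and its seed, bases 2 to 8, directs the pairing to target mRNAs. The family is known for promoting differentiation, for repressing Lin28, Hmga2 and Ras mRNAs, and for its own block by LIN28, which binds the hairpin. miR-98 carries the let-7 seed under another name.

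All 21 identifiers matched a mature sequence in RefSeq (GRCm38.p6). The 9 sequences of the 5p arm are shown because all levels in this report depend on telling them apart, with the shared seed, GAGGUAG at bases 2 to 8, in capitals and the names in order of mean mature CPM.
let-7c-5p: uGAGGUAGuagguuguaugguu
let-7a-5p: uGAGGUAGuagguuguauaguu
let-7i-5p: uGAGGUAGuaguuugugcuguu
let-7b-5p: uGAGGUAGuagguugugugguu
let-7f-5p: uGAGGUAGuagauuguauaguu
let-7g-5p: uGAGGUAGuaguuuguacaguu
let-7d-5p: aGAGGUAGuagguugcauaguu
let-7e-5p: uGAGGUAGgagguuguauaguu
miR-98-5p: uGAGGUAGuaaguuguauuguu
Over the 36 pairs of these sequences, the number of differing bases ran from 1 to 6, with a median of 3. Counted from 1 at the 5′ end, let-7a-5p differs from let-7c-5p by G19A, let-7b-5p by A17G, and miR-98-5p by G11A and G19U. A single misread base can therefore turn one member into another, and the number of mismatches allowed in the mapping is not given in the sources used here.

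The 12 sequences of the 3p arm held 8 different seeds. They are shown, again with bases 2 to 8 in capitals, because the copies of let-7a, let-7c and let-7f can be told apart on this arm.
let-7a-1-3p: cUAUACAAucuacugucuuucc
let-7c-2-3p: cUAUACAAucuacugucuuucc
let-7b-3p: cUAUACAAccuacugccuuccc
let-7f-1-3p: cUAUACAAucuauugccuuccc
miR-98-3p: cUAUACAAcuuacuacuuuccu
let-7c-1-3p: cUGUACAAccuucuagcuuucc
let-7a-2-3p: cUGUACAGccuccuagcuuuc
let-7f-2-3p: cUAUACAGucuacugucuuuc
let-7d-3p: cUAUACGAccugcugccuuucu
let-7e-3p: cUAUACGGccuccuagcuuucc
let-7i-3p: cUGCGCAAgcuacugccuugcu
let-7g-3p: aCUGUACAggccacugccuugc
The seed UAUACAA was shared by 5 of them, and the sequences of let-7a-1-3p and let-7c-2-3p were identical, so that reads of these cannot be assigned to either hairpin by sequence.

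The hairpins lie at 12 loci, of which some stand close together (GRCm38 coordinates, with the GENCODE vM21 annotation). Mirlet7d (chr13:48536012-48536114), Mirlet7f-1 (chr13:48537829-48537917) and Mirlet7a-1 (chr13:48538179-48538272) overlapped exons of the lincRNA 6720427I07Rik on the minus strand, with 1714 bases between the first pair and 261 between the second. Mirlet7c-2 (chr15:85706603-85706697) and Mirlet7b (chr15:85707319-85707403), 621 bases apart, lay in an exon of Lncppara. Mirlet7f-2 (chrX:151912346-151912428) and Mir98 (chrX:151913214-151913321), 785 bases apart, lay in an intron of Huwe1. Mirlet7g (chr9:106178840-106178927) was in an intron of Wdr82, Mirlet7e (chr17:17830352-17830444) in one of Spaca6, and Mirlet7c-1 (chr16:77599657-77599750) in one of Mir99ahg. Mirlet7a-2 (chr9:41536716-41536811) lay in introns of 3110039I08Rik and Gm49317, and Mirlet7i (chr10:122985640-122985724) in an exon of D630033A02Rik.

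Mature counts of the family were almost wholly on the 5p arm. The 5p entries held 219136, 286657 and 322160 counts in replicates 1, 2 and 3, and the 3p entries held 434, 694 and 789. The 3p arm thus made up 0.198%, 0.242% and 0.244% of the family's mature counts (mean 0.228% ± 0.0262 SD, n = 3). Of all mature counts the family took 25.2%, 28.6% and 33.4%, with the highest share in replicate 3.

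**Figure D1:**
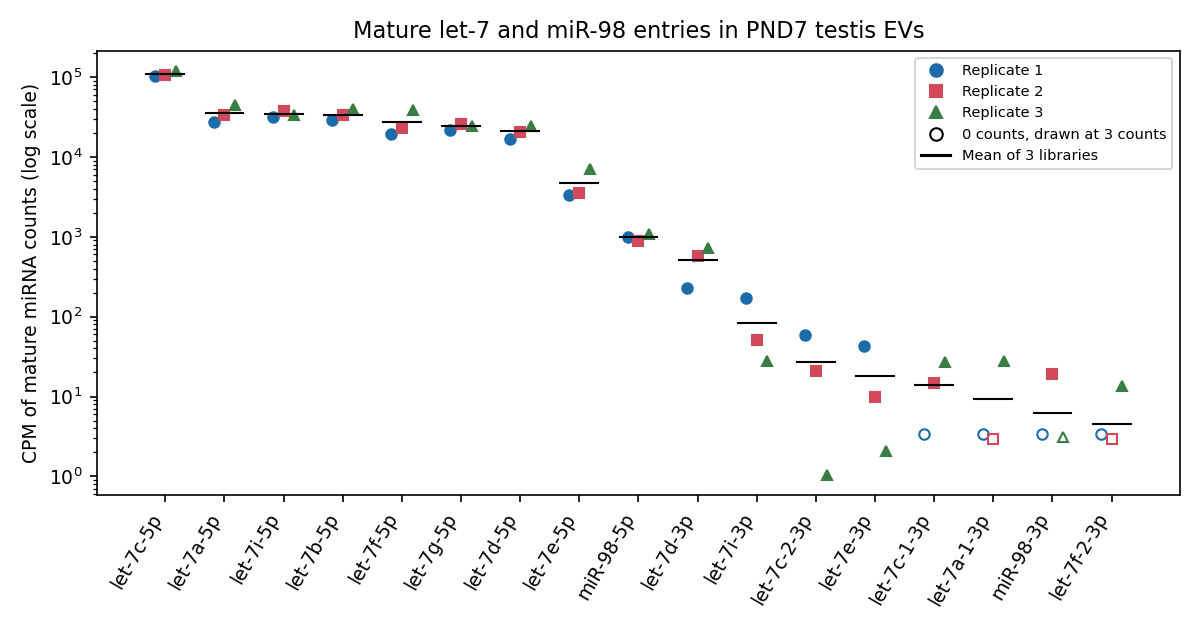
Mature level of each family entry (vertical axis, CPM of mature counts, log scale) in the 3 libraries, with the 5p and 3p arms apart; bars are means, and open symbols mark 0 counts, drawn at the level of 3 counts. miR-98-5p, the lowest 5p entry at 992.6 CPM, lies above let-7d-3p, the highest 3p entry at 506 CPM.

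miR-98-5p was the lowest 5p member in every library. It had 860, 902 and 1057 mature counts in replicates 1, 2 and 3, or 987, 897 and 1094 CPM (mean 992.6 ± 98.6 SD, n = 3). Its highest over lowest ratio was 1.22, against a median of 1.73 over 272 mature miRNAs that reached 10 counts in each library. Most of these had fewer counts than miR-98-5p, so the set is not matched for level. miR-98-5p ranked 69, 73 and 68 among the mature miRNAs of the 3 libraries, and it made up 0.392%, 0.315% and 0.328% of the family's 5p counts. Relative to let-7c-5p of the same library, miR-98-5p stood at 0.971%, 0.845% and 0.919%. On the 3p arm, miR-98 had 19 mature counts in replicate 2 and 0 in the others, where a count of 0 allows up to 3 counts, or 3.44 CPM in replicate 1 and 3.10 CPM in replicate 3. The hairpin type added 8 counts of miR-98-3p in replicate 2 and 1 in replicate 3.

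let-7d-3p was the leading 3p member. Its mature counts were 197, 578 and 693 in replicates 1, 2 and 3, or 226, 575 and 717 CPM (506 ± 253 SD), with replicate 1 the lowest. It ranked 136, 93 and 84 among mature miRNAs. The next, let-7i-3p, had 149, 51 and 27 counts, with replicate 1 the highest. let-7d-3p exceeded let-7i-3p in each library, by a mean of 2.86 ± 2.21 (SD) on the log2 scale. The hairpin of Mirlet7d is shown because it gave the most abundant 3p strand, and that of Mirlet7a-1 because the 3p strand it encodes is identical to that of Mirlet7c-2. Both are written 5′ to 3′ from RefSeq with the mature arms in capitals.
Mirlet7d: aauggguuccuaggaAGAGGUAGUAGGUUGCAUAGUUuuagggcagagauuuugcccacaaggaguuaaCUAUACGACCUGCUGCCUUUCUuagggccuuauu
Mirlet7a-1: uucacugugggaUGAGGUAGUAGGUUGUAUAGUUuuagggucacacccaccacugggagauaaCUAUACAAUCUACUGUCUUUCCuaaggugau
The other mature 3p entries were low and did not recur evenly. let-7e-3p had 37, 10 and 2 counts and let-7c-2-3p 51, 21 and 1, both with the highest count in replicate 1. let-7c-1-3p was at 0, 15 and 26, whereas let-7a-1-3p, with 27 counts, and let-7f-2-3p, with 13, were counted in replicate 3 alone. The remaining 4 identifiers, let-7b-3p, let-7g-3p, let-7f-1-3p and let-7a-2-3p, had no mature entry. The range of these entries over the libraries is wide beside their level, so no order among them was read beyond the values.

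The excess of the 5p arm was tested within libraries. The counts of both arms were compared with edgeR's quasi-likelihood test, with the library as a block and with Benjamini-Hochberg adjustment over the 148 miRNAs that had both arms and at least 10 counts in all. The 5p arm was higher at an adjusted p under 0.05 in 24.3% of the 148 miRNAs, and the 3p arm in 8.11%. Of the 9 family members 7 could be tested, and all 7 passed with the 5p arm higher. let-7b and let-7g had no mature 3p counts and were not tested. The adjusted p values from this test were 0.00742 for let-7c, 0.00886 for let-7i, 0.0101 for let-7d, 0.0132 for let-7f, 0.0191 for let-7a, 0.0219 for let-7e and 0.0494 for miR-98. These calls depended on which library was left out. Without replicate 1 the adjusted p of miR-98 rose to 0.112 while the other 6 still passed. Without replicate 2 or without replicate 3 none of the 7 passed in edgeR, with adjusted p from 0.0793 to 0.139 and from 0.108 to 0.205, and no miRNA of the 144 and 143 tested did, although 46 and 44 had an unadjusted p under 0.05. DESeq2 on all 3 libraries kept the 7 calls.

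Members differed in how far the arms stood apart. let-7d had the smallest mean excess, with 5p counts 74.9, 36.1 and 34.4 times its 3p counts in replicates 1, 2 and 3 (mean log2 ratio 5.50 ± 0.63 SD). For let-7i the ratio was 183, 743 and 1203, with the lowest value in replicate 1 (9.10 ± 1.41). For let-7c, with both 3p copies summed, it was 1737, 2964 and 4261 (11.45 ± 0.65). The range of let-7d did not overlap that of let-7i or of let-7c. The ratio of let-7e was 79.5 in replicate 1, 359 in replicate 2 and 3421 in replicate 3, where the 3p arm rested on 2 counts, or 0.0292% of both arms (95% Clopper-Pearson interval 0.00354% to 0.106%). Where the mature 3p entry was at 0, 3 counts were taken as its upper limit in that library. On this basis, and among mature entries alone, the 5p count of let-7b was at least 8359, 11121 and 12747 times the 3p count, and that of let-7g at least 6283, 8755 and 7961 times. Both members had hairpin counts on the 3p arm. With the types summed, the ratio of let-7b was 385, 2443 and 3309, and that of let-7g was 1488 in replicate 1, at least 14358 in replicate 2 and 1665 in replicate 3. For miR-98 the ratio of mature entries was at least 287 in replicate 1, 47.5 as measured in replicate 2 and at least 352 in replicate 3.

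The family stood high among all miRNAs in this ratio. With each arm under 3 counts set to 3, the median log2 ratio of 5p to 3p over the 7 members was 9.10, against 1.00 over all 148 miRNAs. The 148 mix miRNAs with either arm higher, and the median of their absolute log2 ratios was 3.88. By this ratio single members ranked from 1 (let-7a) to 42 (let-7d) of the 148. The limit of 3 counts caps the ratio of miRNAs with few counts, and the 148 are not matched for level. The 5p count exceeded the 3p count in every library for the 7 members, and for 43.2% of the 148 (42.4% of 205 with mature and hairpin entries summed). With mature and hairpin entries summed, 9 of 9 members were tested and called 5p higher, where 30.2% of 205 miRNAs were called 5p higher and 15.1% 3p higher. The median log2 ratio was then 8.52 in the family and 0.94 over the 205, where the median of the absolute values was 4.24. In this count too let-7d had the smallest ratio of the family (5.71 ± 0.54), with let-7e (7.03 ± 0.12) and let-7f (7.88 ± 0.36) next among the members whose 3p arm reached 3 counts in every library.

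**Figure D2:**
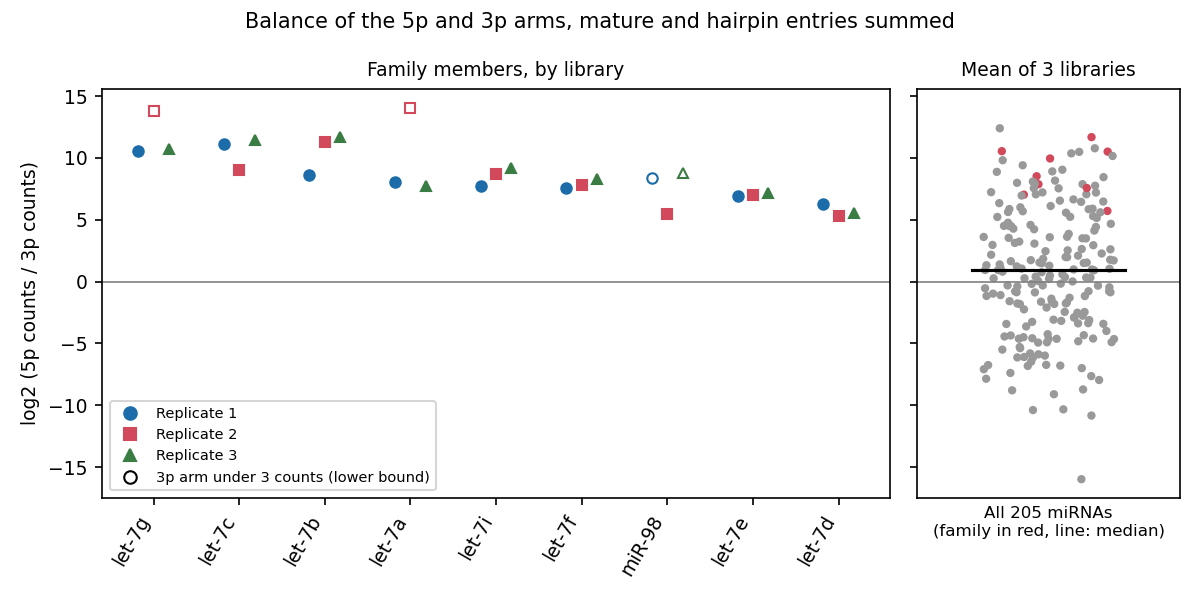
Log2 ratio of 5p to 3p counts, mature and hairpin entries summed and counts under 3 set to 3: on the left each member in each library, with open symbols where the 3p arm was under 3 counts; on the right the mean of each of 205 miRNAs, with the family in red and a line at the median of 0.94. All 9 members lie above 0 in every library, let-7d lowest at 5.71.

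Several let-7 genes have neighbours that are transcribed from the same clusters, and the miRNAs of these neighbours, miR-99a, miR-99b, miR-100, miR-125a and miR-125b, were examined beside the family. All 5 were called 5p higher in the same edgeR test, against the background of 24.3%. miR-99a-5p had 34482, 36269 and 26063 mature counts and its 3p arm 3, 0 and 26. miR-99b had the smallest fitted excess of the 5, at 4.95 ± 0.62 (log2 ± SE), with 10282, 14032 and 11452 counts on its 5p arm and 373, 376 and 395 on its 3p arm. The 3p arm of miR-99b thus lay in the range of let-7d-3p, above all other mature 3p entries of the family.

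Except for the identical pair, the 3p sequences differ between hairpin copies. Reads of the 3p arm can tell the copies apart as far as the mapping separates these sequences. The 5p reads cannot, since let-7a, let-7c and let-7f are each encoded by 2 loci with the same 5p sequence. The catalogue named let-7a-5p under let-7a-1, let-7c-5p under let-7c-2 and let-7f-5p under let-7f-1 in each library. With both types summed, the family's 3p counts were 925, 1422 and 1520 in replicates 1, 2 and 3. let-7d-3p made up 30.3%, 56.0% and 49.9% of these.

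For let-7f, nearly all 3p counts were assigned to the copy on chromosome X and not to the one named beside its 5p entry. let-7f-2-3p had 128, 131 and 185 counts and let-7f-1-3p 1, 21 and 0. The copy let-7f-2 thus held 99.2% (95% Clopper-Pearson interval 95.8% to 99.98%), 86.2% (79.7% to 91.2%) and 100% (98.03% to 100%) of the 3p counts of let-7f. However, let-7f-2-3p differs from let-7a-1-3p and let-7c-2-3p only in the last base of the seed and by lacking their final c. The mismatches allowed in the mapping are not given, so sharing of reads with that pair was not tested. The partner of let-7f-2 in the Huwe1 intron, miR-98, had 0, 27 and 1 counts on its 3p arm.

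The identical pair let-7a-1-3p and let-7c-2-3p traded counts between libraries. let-7a-1-3p had 132, 0 and 330 counts in replicates 1, 2 and 3, and let-7c-2-3p had 52, 242 and 1. Each was thus near 0 in a library where the other was high. Their sum was 184, 242 and 331 counts, or 19.9%, 17.0% and 21.8% of the 3p counts, and it varied less than either entry. In CPM of mature and hairpin counts the sum was 166 ± 42.3 (SD), where let-7a-1-3p alone was 103 ± 107 and let-7c-2-3p 62.8 ± 77.5. The other copies were rarer, with 0, 1 and 0 counts for let-7a-2-3p and 0, 15 and 54 for let-7c-1-3p. Separate levels of let-7a-1-3p and let-7c-2-3p are therefore uncertain in each library, and the ratios of the arms of let-7a and let-7c share that uncertainty. With let-7a and let-7c treated as 1 member, the mature log2 ratio of 5p to 3p was 11.52 ± 0.41 (SD, n = 3).

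**Figure D3:**
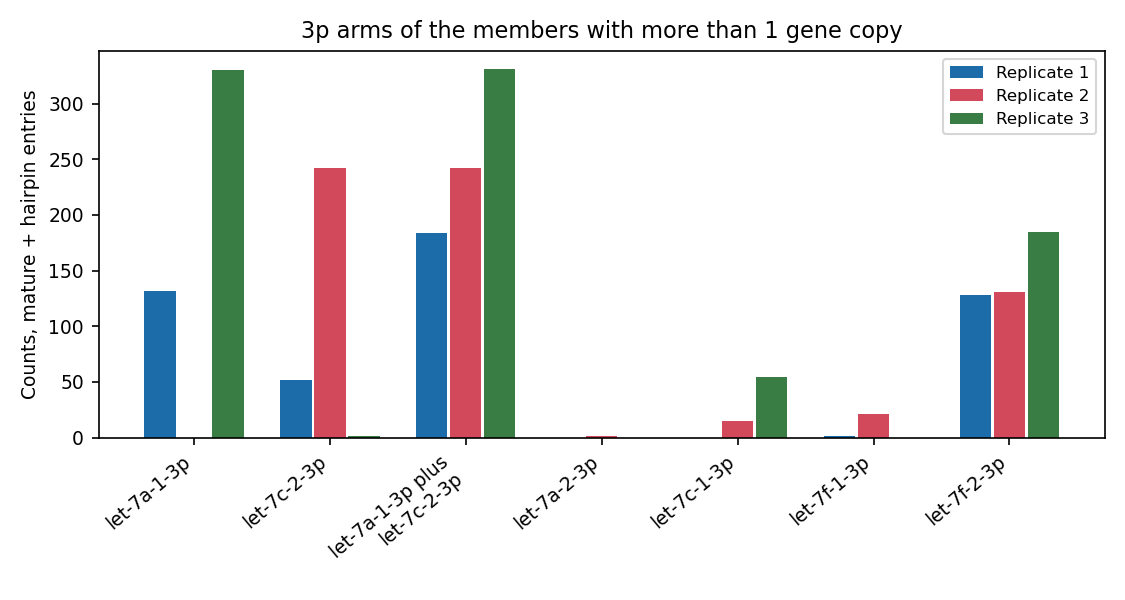
Counts on the 3p arm of each copy of let-7a, let-7c and let-7f (vertical axis, counts, mature and hairpin entries summed) in the 3 libraries. let-7a-1-3p is at 0 in replicate 2, where let-7c-2-3p is at 242, while let-7f-2-3p holds 128 to 185 counts in every library.

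The 5p and 3p arms, each summed over the family, also differed in the type to which their counts were assigned. Of the family's 5p counts, 70.5%, 70.8% and 68.4% were mature in replicates 1, 2 and 3, and of its 3p counts 46.9%, 48.8% and 51.9%. Over all mature and hairpin counts of miRNAs this share was 63.8%, 62.2% and 62.6%. As sums, the family's 5p arm thus lay above the overall share in every library and its 3p arm below it. Not all members followed the sums. In every library let-7d-3p lay above the overall share, at 70.4%, 72.5% and 91.3%, and let-7g-5p below it, at 60.3%, 61.0% and 59.8%. In the edgeR test of this balance, given below, 2 of 9 members on the 5p arm and 0 of 11 on the 3p arm were called. The overall share is weighted by counts, so abundant entries, the family's 5p arm among them, set much of it. In that test the median of all 722 identifiers lay at a log2 ratio of -1.36 relative to the overall balance. A place below the overall share is thus not particular to the family's 3p arm. Of 12 identifiers on the 3p arm, the 4 without a mature entry had hairpin counts only. let-7b-3p had 100, 21 and 18 such counts, and let-7f-2-3p had 128, 131 and 172 hairpin counts beside its 13 mature ones.

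Among the 5p members the mature share was close between libraries, most widely spread for miR-98-5p, and differed between members. let-7c-5p had 76.4%, 77.6% and 74.3% (76.1% ± 1.70 SD) and let-7i-5p 74.8%, 75.9% and 75.3% (75.4% ± 0.560). miR-98-5p had 84.1%, 74.1% and 79.1% (79.1% ± 5.02). The lowest was let-7g-5p, with 60.3%, 61.0% and 59.8% (60.4% ± 0.600), and its range did not overlap that of let-7c-5p or let-7i-5p. The mature to hairpin ratio of each identifier, relative to that of all counts in its library, was tested with edgeR's quasi-likelihood test with the library as a block over 722 identifiers. Of these 4.29% were called higher in mature and 8.31% higher in hairpin counts. In the family 2 of 20 tested were called, both mature higher, namely let-7c-5p by 0.91 ± 0.08 (log2 ± SE, adjusted p 0.00335) and let-7i-5p by 0.85 ± 0.08 (adjusted p 0.00372). miR-98-5p had the value 1.19 ± 0.26 with an adjusted p of 0.0538 in this edgeR test and was not called. The call of let-7c-5p was lost without replicate 1 (adjusted p 0.0553 in edgeR) and that of let-7i-5p without replicate 2 (0.0504). TMM scaling shifted the median of all identifiers by 0.44 and turned the split of calls from 31 mature higher and 60 hairpin higher to 54 and 51, with 8 family members called.

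On the 3p arm the same share varied widely in some members and little in others. let-7e-3p had 40, 44 and 73 counts in both types together, of which 92.5%, 22.7% and 2.74% were mature in replicates 1, 2 and 3. let-7i-3p had 87.1% in replicate 1 and 41.5% and 36.0% in the others, and let-7d-3p had 70.4%, 72.5% and 91.3%. The SD of the mature share had a median of 1.70 percentage points over the 9 members of the 5p arm (0.516 to 5.02). Over the 5 members of the 3p arm that reached 10 counts in each library the median was 11.5 (0 to 47.1), with let-7b-3p at 0 mature counts in every library and let-7f-2-3p at 0%, 0% and 7.03%. It was 7.68 over 395 identifiers that reached 10 counts in each library and 2.44 over the 95 of these at or above the mean count of miR-98-5p. The mature level of let-7e-3p was 42.5, 9.94 and 2.07 CPM, highest in replicate 1, whereas its level with types summed, in CPM of both types, was 29.3, 27.2 and 47.3, highest in replicate 3.

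**Figure D4:**
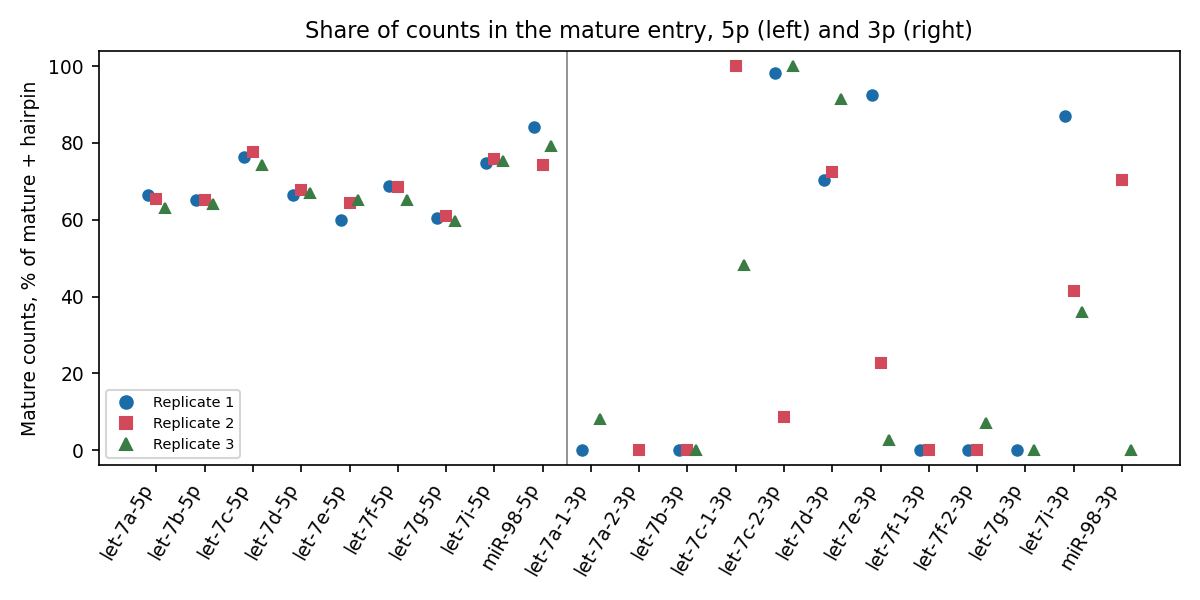
Share of mature counts among the mature and hairpin counts of each family identifier (vertical axis, percent) in the 3 libraries. The points of the 5p members lie between 59.8% for let-7g-5p and 84.1% for miR-98-5p, which spans the widest range of them, and those of let-7e-3p reach from 2.74% to 92.5%.

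Within each library the 5p members fell into an order whose ends were fixed and whose middle was not. let-7c-5p took place 1, let-7d-5p place 7, let-7e-5p place 8 and miR-98-5p place 9 in all 3 libraries. The place of let-7d-5p was the least firm of these. In replicate 3 it lay inside counting error of let-7g-5p, and among the hairpin entries let-7d-5p was at 7, 7 and 6. The other 5 members changed places. let-7a-5p was at place 4, 3 and 2 in replicates 1, 2 and 3, and let-7i-5p at 2, 2 and 5. let-7b-5p was at 3, 4 and 3, let-7f-5p at 6, 6 and 4, and let-7g-5p at 5, 5 and 6.

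Neighbours in the order of mean CPM were compared as log2 differences within a library. let-7c-5p exceeded let-7a-5p by 1.65 ± 0.24 (SD, n = 3), let-7d-5p exceeded let-7e-5p by 2.22 ± 0.38, and let-7e-5p exceeded miR-98-5p by 2.15 ± 0.48. These gaps were larger than the spread between the libraries. let-7a-5p, let-7i-5p and let-7b-5p were not separated, with differences of 0.02 ± 0.34 and 0.02 ± 0.23, and neither were let-7f-5p and let-7g-5p (0.10 ± 0.47). let-7b-5p exceeded let-7f-5p by 0.38 ± 0.30, and let-7g-5p exceeded let-7d-5p by 0.23 ± 0.20, both in the same order in all libraries. In replicate 3 the last pair had 23882 and 23852 counts, the only 5p comparison of 24 within a library that was inside counting error. An exact sign-flip permutation test, two-sided, gave p = 0.25 for each pair in the same order in all 3 libraries, which is the smallest p that 3 libraries allow (0.393 adjusted over 11 pairs).

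**Figure D5:**
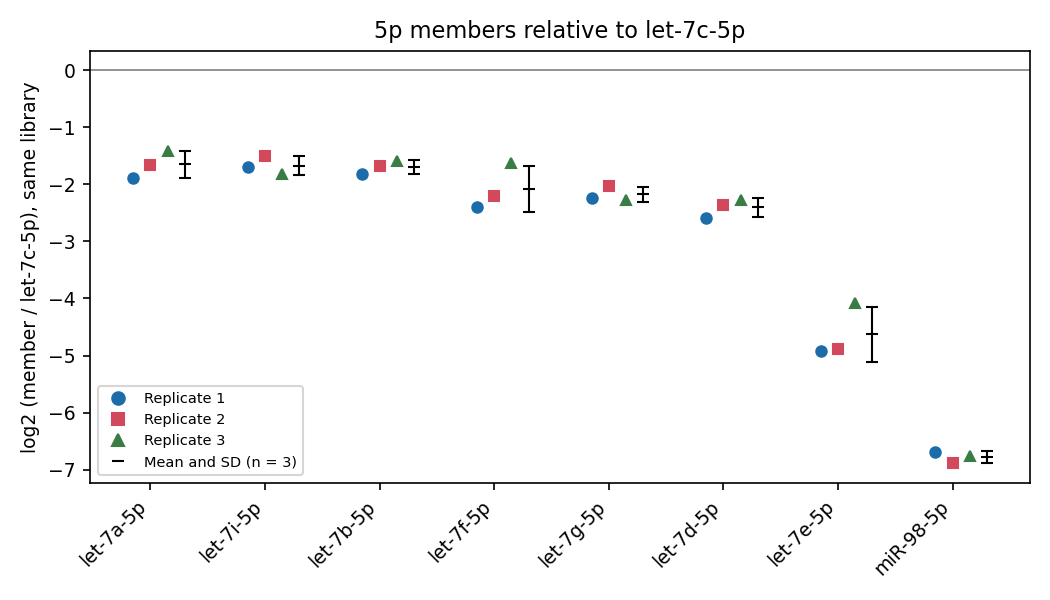
Log2 of each 5p member relative to let-7c-5p of the same library (vertical axis), in order of the mean; points are libraries, and bars give the mean and SD of 3 libraries. let-7a-5p, let-7i-5p and let-7b-5p overlap at means of -1.65, -1.67 and -1.70, and miR-98-5p is lowest at -6.78.

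In replicate 3 the members differed in how far they stood from their level in the other libraries. The CPM of replicate 3 over the mean of replicates 1 and 2 was 2.04 for let-7e-5p, 1.82 for let-7f-5p, 1.47 for let-7a-5p and 1.31 for let-7d-5p. It was 1.28 for let-7b-5p, 1.16 for miR-98-5p, 1.15 for let-7c-5p, 1.03 for let-7g-5p and 0.974 for let-7i-5p, and its median over 272 mature miRNAs was 0.953. The highest 4 are those that end in the bases AUAGUU, as the printed sequences show, a grouping made after the values were seen and given with no test. Among the hairpin entries, let-7i-5p, at place 2 of the mature entries in replicates 1 and 2, was at 5, 5 and 7.

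The mature miRNAs whose level followed the family's 5p total most closely over the 3 libraries were sought among 63 with a mean of at least 1000 CPM, by the SD of the log2 ratio to the family. miR-470-5p was closest, with an SD of 0.0365 and 3.65%, 3.76% and 3.58% of the family's 5p counts. miR-23a-3p (0.0801) and miR-369-5p (0.123) followed, against a median of 0.330 over the 63. With a minimum of 100 CPM, which gave 168 candidates, miR-409-3p (0.0810) took the place of miR-369-5p. These likenesses rest on 3 libraries and share their depth, and they are given as a description.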

How the data were processed

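Members and gene lists were chosen with earlier results of these data known. Per the labels and the methods of the study, small RNA was sequenced on the BGISEQ-500 platform, and the authors filtered the reads, mapped them with Bowtie2 and cmsearch and gave each read to 1 class, with miRBase first. The submitters' processing notes name mm10, and versions are not given in the sources used here. The authors deposited whole-number counts per small RNA, not normalized, and, per class, its percent of the clean reads. The deposited UMI column was not used.

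Counts were scaled to CPM by the mature or hairpin total of each library. The clean reads of the libraries were between 25716952 and 27939308. Values are mean ± SD over 3 libraries. Intervals are exact binomial (Clopper-Pearson, 95%) and, like the limit of 3 counts for a count of 0, cover counting error only, since PCR copies were not told apart. Arms and types were compared with edgeR 4.0.16 (glmQLFit and glmQLFTest, R 4.3.3), at least 10 counts over all columns, class totals as library sizes for types, and Benjamini-Hochberg adjustment over all miRNAs tested. The SE given with an edgeR log2 value is the absolute value divided by the square root of the F statistic of its test. The library was a block because both columns of a pair come from the same library. In simulated data for the arm test on 148 miRNAs, 100% of 4-fold and 34% of 2-fold changes were recovered. For the type test on 722 identifiers these shares were 91.5% and 21%. The simulated counts had the same dispersion for every miRNA, not estimated from these data, and no library effect. These shares therefore do not tell how often changes of that size are found in the real counts. Alternatives were DESeq2 1.42.0, TMM factors, no block, other count minimums, summed types, other denominators, and each replicate left out in turn. let-7a and let-7c were summed as an alternative added after the data were seen. Named small RNAs were every member of the family by name, the 5 cluster partners, entries with the same seed, and the 3 most alike miRNAs at each minimum CPM. Genome positions are from GENCODE vM21 (GRCm38), and sequences from RefSeq (GRCm38.p6). The other tools were SciPy 1.17.1, numpy 2.4.6 and pandas 2.3.3 in Python 3.11.15, with matplotlib 3.10.9 for plots.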

Additional observations from a re-analysis of the deposited data

Results flagged for a closer look

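Signals of the family outside the entries chosen by name were found in each of the 3 libraries. The precursor class held an entry for the let-7 family of Rfam, RF00027, with 12315, 17570 and 25450 counts in replicates 1, 2 and 3, or 10.5%, 11.2% and 17.1% of the precursor counts, with replicate 3 the highest as it was for the mature 5p total. let-7k, which has the let-7a-5p seed but no arm in its name, had 1836, 228 and 714 hairpin counts and 0, 0 and 1 mature counts. let-7j, likewise without an arm in its name but not among the names found to share this seed, had 43, 42 and 99 hairpin counts. These entries have no control sample beside them. The precursor entry and both hairpin entries were, in each library, above the 3 counts that a count of 0 allows.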

How the results depend on the processing

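With both types summed the 5p share of the family changed from 99.8% to 99.7%. The family's mature and hairpin entries took 23.95% of all mature, hairpin and precursor counts, in place of 29.1% of mature counts. RF00027 was part of that total but was not counted with the family. As CPM of clean reads miR-98-5p was at 35.3 and let-7d-3p at 18.2, since the denominator is larger. The 48 arm calls became 92 with DESeq2 and 93 with types summed, and 0 to 40 with a replicate left out. The 7 family calls became 0 to 6 with a replicate left out, namely 6 without replicate 1 and 0 without replicate 2 or replicate 3, and the cause was not tested. The 91 type calls became 227 with DESeq2 and 35 to 79 with a replicate left out. The 2 family type calls became 8 with TMM factors, 12 with DESeq2, and 1 to 3 with a replicate left out. Without the replicate block, arm calls rose from 48 to 70 with all 7 of the family among them, type calls from 91 to 135 and family type calls from 2 to 5. Several differences between neighbours reversed. let-7a-5p minus let-7i-5p ran from -0.17 (without replicate 3) to 0.13 (without replicate 1) with a replicate left out. let-7i-5p minus let-7b-5p was -0.71 in hairpin entries, -0.19 with types summed, -0.026 without replicate 1, -0.057 without replicate 2 and 0.15 without replicate 3. let-7f-5p minus let-7g-5p was -0.35 in hairpin entries, -0.061 with types summed, and -0.17 (without replicate 3) to 0.24 (without replicate 2) with a replicate left out. let-7c-2-3p minus let-7e-3p was -1.12 with types summed and -0.27 (without replicate 2) to 0.77 (without replicate 3) with a replicate left out. For the other changed values the cause was not tested. With 3 libraries the exact sign-flip test of neighbours cannot pass 0.05, since its smallest p is 0.25.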

Other observations

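Of 1679 mature names in the RefSeq table, 2 outside the family share the seed of let-7a-5p, let-7k and miR-1961. miR-1961 had 0 mature and 0 hairpin counts in each of the 3 libraries, where 3 counts are the limit that a count of 0 allows.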
